A study of Mus musculus with 6 samples.

Results

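The genes described here encode the subunits of voltage-gated sodium channels (Scn), voltage-gated calcium channels (Cacn) and potassium channels (Kcn). They were picked out by a rule on the gene symbol that uses no measured value, and 132 of the 54433 genes in the table carried such a symbol. By name 14 were sodium, 26 calcium and 92 potassium channel subunits, and the deposited description of each of the 132 spoke of a channel or of a protein interacting with one. Of these, 33 had enough counts to be tested.

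RNA was sequenced from MC3T3-E1, an osteoblast-like mouse line that serves to study bone-forming cells in culture. Wild-type cells kept in Dulbecco's modified Eagle medium with serum gave the 3 control libraries (WT). The 3 other libraries (FR) came from cells of the same line that had been adapted in culture, in what the labels call a gradient of 10 ppm fluoride, until they were resistant to 30 ppm. The labels describe the FR cells as exposed to fluoride, so resistance and exposure cannot be told apart in this design. The adaptation text speaks of clones without saying how many gave the FR libraries, nor whether replicate libraries stem from cultures of their own. The series title mentions mice, while every sample is labelled as the cell line. Of 10 osteoblast markers 6 were tested and all 6 were lower in FR, where 35.5% of all tested genes were lower. The summed level of the 10 was 17700 to 18000 CPM in the WT and 4860 to 4890 CPM in the FR libraries. Alpl, Ibsp, Sp7 and Bglap, which mark maturing osteoblasts, had between 0 and 8 counts in any library of either group. The libraries held between 19246100 and 27140700 counts.

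Voltage-gated channels open when the membrane potential changes. Their alpha subunits form the pore, and the auxiliary subunits, which do not form it, alter how many channels reach the membrane and how they open and close. Sodium and calcium channels let positive charge into the cell, and potassium channels let it out and hold the resting potential. In bone-forming cells, L-type calcium channels are known as a route of calcium entry, and potassium channels are known to set the membrane potential that drives it.

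Setting FR against WT asks which channel genes differ in expression between the adapted and the unadapted cells. All 4 sodium channel alpha genes that could be tested were lower in FR, between 6.31-fold and 7.68-fold for the 3 that were still detected there. The remaining gene, Scn1a, entered the test through its WT libraries alone. Among the calcium channels the T-type pore gene Cacna1g was 22.0-fold lower while the L-type pore gene Cacna1c was 2.38-fold higher. The potassium channel pore genes were more often lower than higher, and 3 of 4 tested auxiliary subunits of voltage-gated potassium channels were higher. Of all tested genes 34.6% were higher and 35.5% lower. Among the pore genes that were lower, Kcnd1, Kcnk5 and Kcnk10 were let into the test by their WT level. Levels are given as CPM (counts scaled to library size with TMM factors), as the value in each of the 3 libraries and as mean ± SD (n = 3 per group). Log2 fold changes give FR relative to WT, each with its standard error from the model. The p-values come from edgeR's quasi-likelihood test, with Benjamini-Hochberg adjustment across the 14889 genes that could be tested. A gene is said to have risen or fallen where its adjusted p was under 0.05.

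Of the 33 tested subunits 28 (84.8%) passed the test, against 70.1% of all tested genes. Higher in FR were 8 (24.2%), where 34.6% of all tested genes were higher. Lower were 20 (60.6%), where 35.5% of all tested genes were lower. With a change of at least 2-fold in addition, 5 subunits (15.2%) were higher against 7.4% of all genes, and 17 (51.5%) were lower against 11.4%. The 3 WT and the 3 FR libraries did not overlap in CPM for 28 of the 33 subunits (84.8%), and for 72.4% of all tested genes. The median log2 fold change was -1.04 over the 33 subunits and 0.00 over all tested genes. Over the 24 subunits with a mean of at least 1 CPM, 6 were higher, 16 lower and 2 neither, with a median of -1.11. Of all 13131 tested genes at that level, 4812 were higher and 4869 lower, with a median of 0.01. Kcnmb4, Kcnd1 and Scn1a entered the test through their WT libraries alone and Cacna1i through its FR libraries alone, so a difference between the groups was built into their selection. Kcnk5 and Kcnk10 passed the filter level in 3 WT libraries and 1 FR library, and Cacnb4 in 3 and 2. The WT level of these genes thus decided their entry, which favoured a fall. RNA of whole cultures was measured, so fewer cells expressing a gene and less RNA per cell cannot be told apart.

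**Figure D1:**
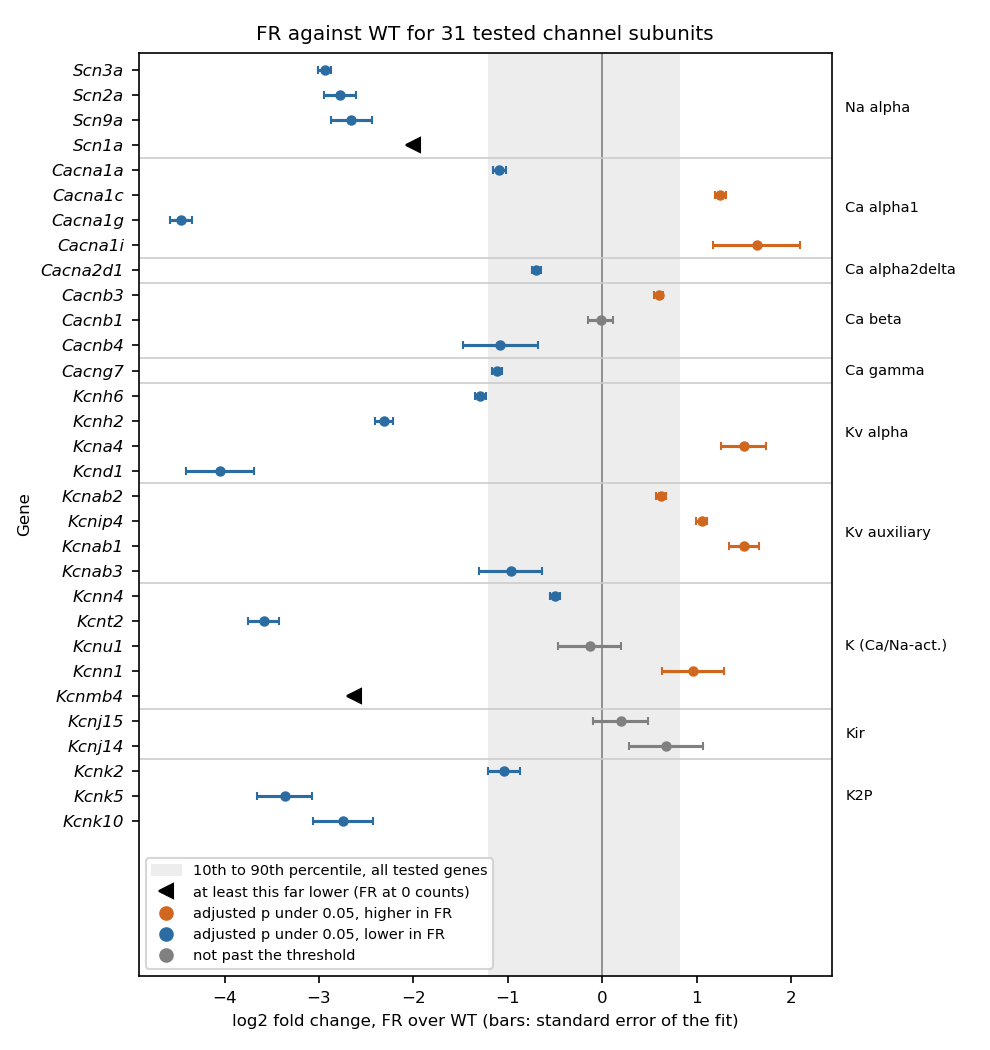
Log2 fold change of FR over WT (x axis) for 31 tested channel subunits (rows, grouped by class), with bars for the standard error of the fit and triangles for the lower bound of the fall of genes with 0 counts in FR. The grey band spans the 10th to 90th percentile of all tested genes, from -1.2 to 0.81. The 4 sodium channel genes drawn lie to the left of it, and Cacna1g lies farthest left of the points with an estimate.

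**Figure D2:**
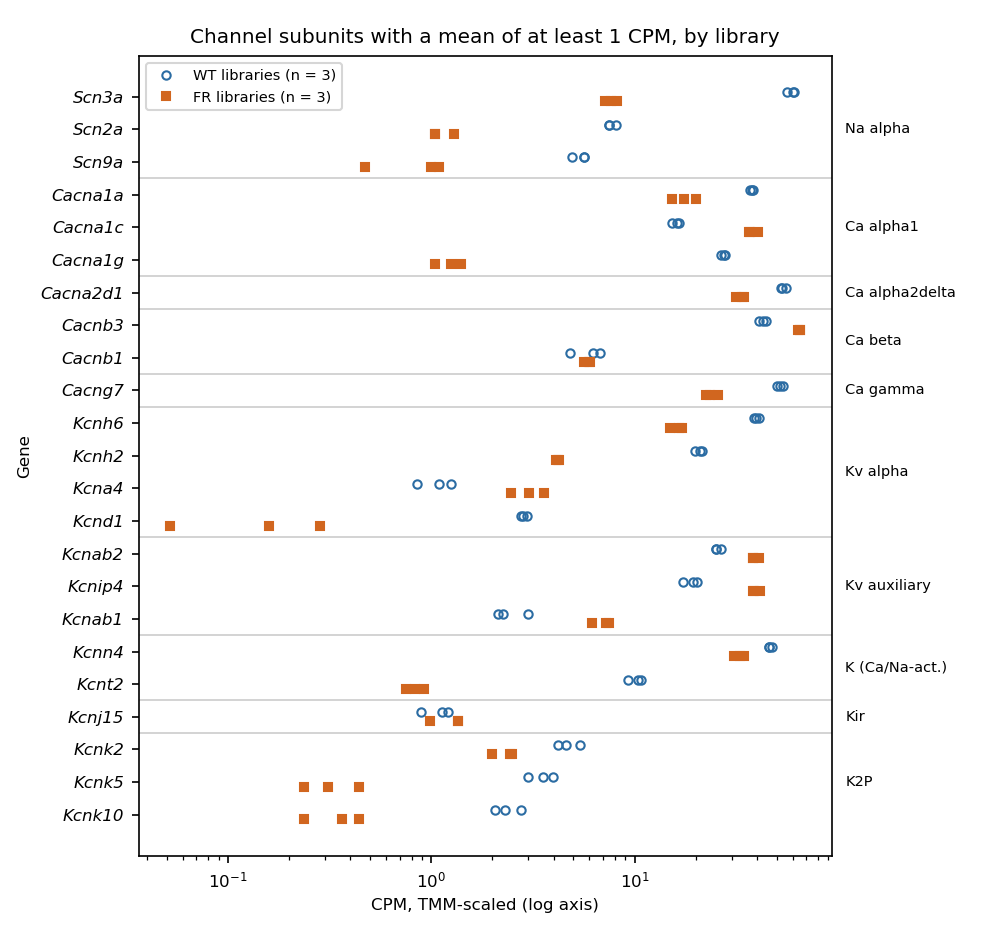
Level in CPM (log axis) of 23 channel subunits with a mean of at least 1 CPM in each WT library (circles) and each FR library (squares). The circles and squares of a gene are apart for 21 of the 23, the exceptions being Cacnb1 and Kcnj15. Of all 13131 tested genes with a mean of at least 1 CPM, 9926 are apart in the same way.

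Most channel genes were close to silent in these cells. No count was found in any library for 37 of the 132 genes, 51 had 1 to 10 counts over the 6 libraries together, and 11 more had over 10 but were not tested. In WT 14 subunits reached 10 CPM and in FR 9 did, and 26 and 20 reached 1 CPM. The median of all tested genes was 23.1 CPM in WT and 21.4 CPM in FR. Summed over the 132 genes, the level was 505 to 515 CPM in the WT libraries and 347 to 357 CPM in the FR libraries. Per kb of the deposited gene length, the highest levels in WT were those of Cacng7 at 23.5 ± 0.819 CPM per kb and Kcnn4 at 23.3 ± 0.404, which did not differ beyond their spread. Cacnb3 followed at 17.3 ± 0.649 CPM per kb. In FR the order was Cacnb3 at 26.1 ± 0.371 CPM per kb, then Kcnip4 at 16.7 ± 0.671 and Kcnn4 at 16.5 ± 0.941, whose levels overlapped within their SD. The subunits with the highest level per length were thus, in both groups, mainly auxiliary ones, apart from the potassium channel Kcnn4.

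Sodium channel alpha subunits form the pore that carries the upstroke of the action potential in nerve and muscle. All 4 that were tested fell, where 35.5% of all tested genes were lower. Together the 10 alpha genes summed to 70.8 to 75 CPM in the WT and 8.78 to 10.3 CPM in the FR libraries. Scn3a (ENSMUSG00000057182), a neuronal alpha subunit prominent before birth, made up most of this. Its level was 60.2, 56.5 and 60.7 CPM in the WT libraries and 7.69, 8.19 and 7.13 CPM in the FR libraries. The groups were far apart, and Scn3a fell from 59.1 ± 2.30 to 7.67 ± 0.530 CPM (log2 fold change -2.94 ± 0.06, adjusted p = 3.01e-25). Scn2a (ENSMUSG00000075318), an alpha subunit of the axons of brain neurons, stood at 8.13, 7.49 and 7.49 CPM in WT and 1.3, 1.04 and 1.04 CPM in FR. It fell by 2.78 ± 0.17 on the log2 scale (adjusted p = 8.90e-15), again without overlap. Scn9a (ENSMUSG00000075316), which sets the excitability of pain-sensing neurons, had 5.64, 5.67 and 4.95 CPM in WT and 1.09, 0.999 and 0.472 CPM in FR. It fell by 2.66 ± 0.22 on the log2 scale (adjusted p = 7.89e-12), and the FR libraries differed among themselves by more than the WT libraries did, relative to their level.

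Scn1a (ENSMUSG00000064329), an alpha subunit of inhibitory neurons, had 17, 16 and 11 counts in the WT libraries and 0 in each FR library. Against a floor of 3 counts per library it was at least 4.01-fold lower (adjusted p = 2.69e-06). Scn7a, an alpha-like subunit that senses sodium, was too low to be tested, with 5, 8 and 2 counts in WT and 0 in each FR library. The 4 tested alpha genes thus shared a direction, with a median log2 fold change of -2.86, or -2.72 with Scn1a at its bound. Scn1a entered the test through its WT libraries alone, so its direction was built into its selection.

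The make-up of the alpha subunit RNA differed less than its amount. As a share of the summed CPM per kb of all alpha genes, Scn3a was 81.7 ± 1.34% in WT and 79.2 ± 3.34% in FR. For Scn2a the share was 10.5 ± 0.345% and 11.4 ± 1.32%, and for Scn9a 6.51 ± 0.570% and 7.51 ± 2.44%. For these 3 genes each difference was under the larger of the 2 SDs. The expected counts of Scn3a, Scn2a, Scn9a and Scn1a were not whole numbers in some libraries, so part of their reads was shared out between genes by the authors' counting.

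**Figure D3:**
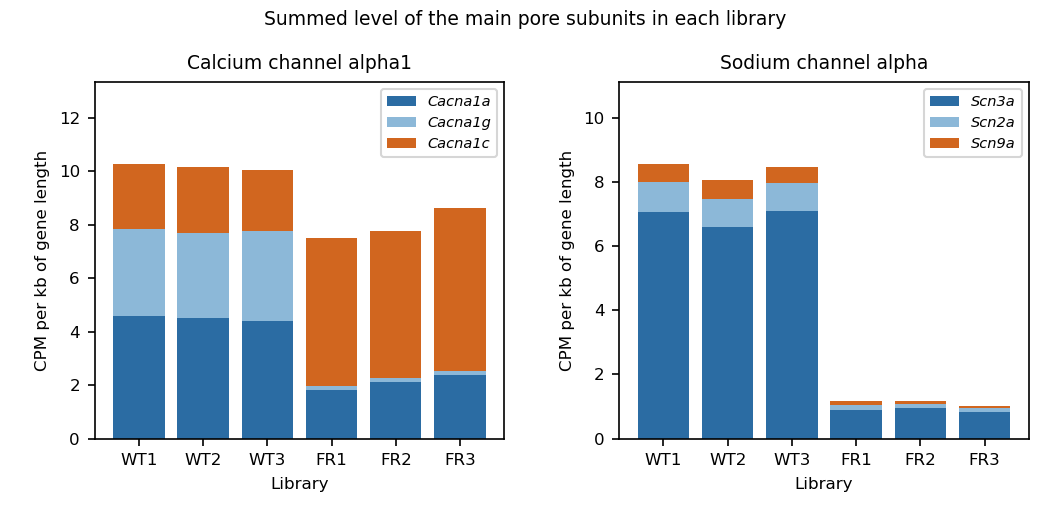
Summed CPM per kb of gene length (y axis, bars from 0) in each library (x axis) for the 3 main calcium channel alpha1 genes (left) and the 3 main sodium channel alpha genes (right). In WT Cacna1a is the largest part of the left bars and in FR Cacna1c is, at 5.54, 5.51 and 6.10 CPM per kb, while the right bars shrink with Scn3a as the largest part in all 6 libraries.

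The 4 tested alpha genes lie in 1 cluster on chromosome 2, together with Scn7a, in the GRCm38 annotation that was used for gene order. Genes within and beside the cluster did not all move with them. Ttc21b, a cilium gene that lies between Scn2a and Scn1a, was at 47.9, 46.7 and 47.2 CPM in WT and 38.7, 29.9 and 33.7 CPM in FR, and it fell by 0.48 ± 0.07 on the log2 scale (adjusted p = 3.59e-05). Csrnp3 and Galnt3, also between them, had at most 1 count in any library. On the side of Scn3a, Cobll1 rose by 0.42 ± 0.04 on the log2 scale, and on the other side B3galt1 rose by 1.08 ± 0.16 (adjusted p = 1.41e-10 and 9.30e-07). Farther out on the side of Scn3a, Grb14 and Fign fell by 0.62 ± 0.19 and 1.00 ± 0.14 (adjusted p = 0.00492 and 3.33e-07). The nearest tested genes on both sides of the cluster were thus higher in FR, and the 1 tested gene within it had a smaller fall than each of the 4 tested alpha genes.

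**Figure D4:**
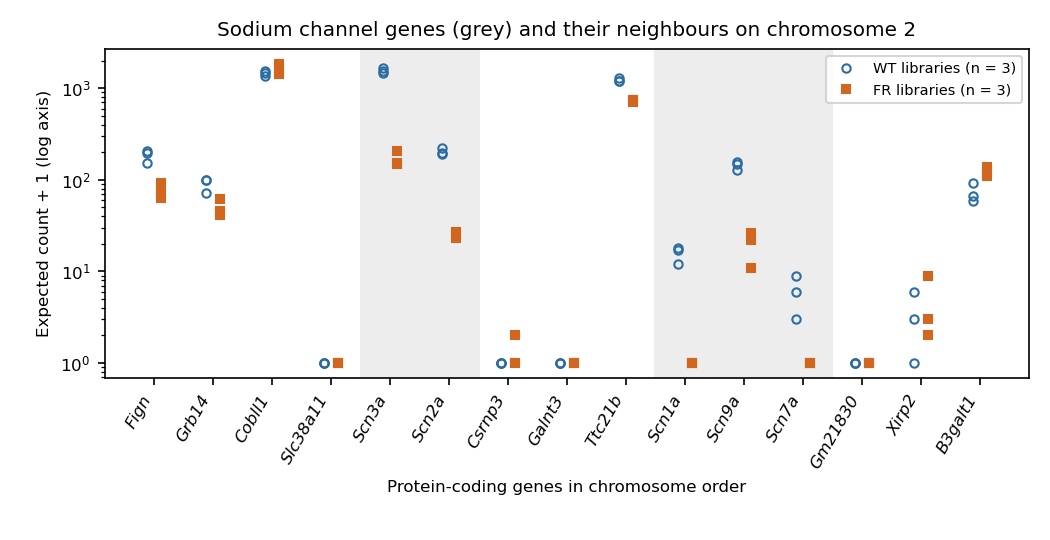
Expected count plus 1 (log axis) in each WT library (circles) and FR library (squares) for the protein-coding genes in their order along chromosome 2, with the sodium channel genes on grey. Scn3a, Scn2a, Scn1a, Scn9a and Scn7a are lower in every FR library than in any WT library, and Cobll1 stays above 1000 counts in all 6.

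Sequences before the start of transcription are shown for Scn2a and Scn9a, since the tested sodium channel genes moved together. RefSeq promoter windows on GRCm38.p6, of 250 bases before and 50 after each annotated start, were found for 24 of the 33 tested subunits, 41 windows in all. The 250 bases before the start are printed 5′ to 3′ on the gene's strand, with capitals for letters that match 1 of 6 motifs searched on both strands. These were the GC box GGGCGG, the cyclic AMP response element TGACGTCA, the AP-1 site TGANTCA, both parts of the site of the neuronal repressor REST (GGACAGC and TTCAGCACC) and the TATA box TATAAA. For Scn2a the second of its windows is shown, at chr2:65668436-65668685 on the plus strand, and for Scn9a chr2:66634963-66635212 on the minus strand.
Scn2a: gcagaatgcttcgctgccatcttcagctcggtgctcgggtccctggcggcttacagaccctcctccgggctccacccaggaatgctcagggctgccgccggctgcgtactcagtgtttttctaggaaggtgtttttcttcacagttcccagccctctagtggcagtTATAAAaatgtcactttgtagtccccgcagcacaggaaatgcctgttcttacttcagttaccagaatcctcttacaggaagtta
Scn9a: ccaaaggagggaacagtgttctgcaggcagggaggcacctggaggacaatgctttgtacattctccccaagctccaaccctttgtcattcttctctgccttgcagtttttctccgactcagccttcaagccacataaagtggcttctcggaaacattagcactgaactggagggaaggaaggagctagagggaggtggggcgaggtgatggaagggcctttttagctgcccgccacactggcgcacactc
The Scn2a stretch held 9 CG pairs and 1 TATA box. In the Scn9a stretch there were 5 CG pairs and none of the 6 motifs. The first Scn2a window and the Scn1a window, not shown, held 3 and 5 CG pairs and none of the 6 motifs. No window was found for Scn3a. Over whole windows, the median was 7 CG pairs for all 32851 windows in the table. It was 15 for the 21 windows of 14 subunits that fell and 7 for the 17 windows of 8 that rose. These sets ranged from 3 to 48 and from 1 to 57 CG pairs. Windows of the same gene could differ widely, as in Cacna1c with 7, 57 and 3 CG pairs. The medians weigh genes with several starts more and thus do not compare genes. A GC box stood in 35.7% of all windows, in 10 of the 21 (47.6%) and in 7 of the 17 (41.2%), and a TATA box in 13.6%, 1 and 1. The parts of the REST site were found in 6.56% (GGACAGC) and 0.371% (TTCAGCACC) of all windows, and in 2 and 1 of the 21. The response element TGACGTCA, in 1.79% of all windows, was in none of the 41, and the AP-1 site, in 7.81%, was in 2. A match is a description of letters, and gene counts do not show which start the cells used.

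Calcium channel alpha1 subunits form the calcium pore. Of the 10 genes 4 were tested, and 2 rose and 2 fell, beside 34.6% of all tested genes higher and 35.5% lower. Cacna1g (ENSMUSG00000020866), a T-type pore that opens at small depolarizations, stood at 27.4, 26.7 and 28.0 CPM in the WT libraries and 1.25, 1.40 and 1.04 CPM in the FR libraries. It fell from 27.4 ± 0.637 to 1.23 ± 0.180 CPM (log2 fold change -4.46 ± 0.11, adjusted p = 1.25e-23). Cacna1i (ENSMUSG00000022416), another T-type pore, was near the detection limit, with 8, 5 and 4 counts in WT and 17, 12 and 15 counts in FR. It rose by 1.63 ± 0.46 on the log2 scale (adjusted p = 0.0026). Cacna1i entered the test through its FR libraries alone, so a difference was built into its selection. The T-type gene that rose stayed below the one that fell, at 0.0706 against 0.146 CPM per kb in FR and 0.0219 against 3.26 in WT. The third T-type gene, Cacna1h, had no count in any library.

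Cacna1c (ENSMUSG00000051331), the L-type pore of heart, smooth muscle and many other cells, had 16.2, 16.6 and 15.3 CPM in WT and 37.0, 36.8 and 40.7 CPM in FR. All FR libraries were above all WT libraries, and it rose from 16.0 ± 0.658 to 38.1 ± 2.19 CPM (log2 fold change 1.25 ± 0.06, adjusted p = 9.49e-17). The other L-type pores, Cacna1d, Cacna1s and Cacna1f, had at most 3 counts in a library. Cacna1a (ENSMUSG00000034656), the P/Q-type pore of nerve endings, had 38.3, 37.7 and 36.9 CPM in WT and 15.3, 17.5 and 20 CPM in FR. It fell by 1.09 ± 0.07 on the log2 scale (adjusted p = 5.22e-13). An antisense gene that overlaps its exons, Gm16183, averaged 0.405 CPM in WT and 0.201 CPM in FR.

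The leading calcium pore gene thus differed between the groups. Of the summed CPM per kb of the alpha1 genes, Cacna1a held 44.1 ± 0.266% in WT and 26.1 ± 1.92% in FR. The share of Cacna1g was 32.0 ± 0.991% and 1.83 ± 0.367%, and that of Cacna1c was 23.5 ± 0.796% and 71.0 ± 1.33%. In each WT library Cacna1a was the highest of the 3 per length, and in each FR library Cacna1c was. Cacna1c is prominent in heart and smooth muscle. Markers of skeletal and cardiac muscle summed to 2.50 to 3.49 CPM in WT and 5.62 to 6.02 CPM in FR over 10 genes. Of these 2 were tested, Ttn rising and Tnnt2, which entered the test through WT alone, falling. Myod1, Ryr2 and Actc1 had no count in any library. Smooth muscle markers summed to 708 to 715 CPM in WT and 239 to 242 CPM in FR over 8 genes. Of these 4 fell and 1, Des, rose, where 34.6% of all tested genes were higher and 35.5% lower. The part of either set of markers in the result for Cacna1c was not tested.

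Cacna1c had 3 windows in the RefSeq table. The second, which is the richest in CG pairs, is shown because this gene rose while the other main calcium pores fell. The 250 bases before its start are chr6:119108496-119108745 on the minus strand of GRCm38.p6, with GC boxes in capitals.
Cacna1c: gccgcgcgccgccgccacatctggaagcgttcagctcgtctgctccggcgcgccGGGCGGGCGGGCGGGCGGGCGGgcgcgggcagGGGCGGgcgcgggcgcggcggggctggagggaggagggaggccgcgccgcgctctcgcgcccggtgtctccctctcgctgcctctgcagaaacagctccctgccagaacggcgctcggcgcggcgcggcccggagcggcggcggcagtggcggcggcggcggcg
It held 48 CG pairs and 6 GC boxes, of which several overlap, and none of the other motifs.

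Auxiliary calcium channel subunits moved in both directions. Cacna2d1 (ENSMUSG00000040118), the extracellular alpha2delta subunit that brings channels to the membrane, was at 55.8, 53.1 and 52.7 CPM in WT and 33.8, 31.5 and 34.4 CPM in FR. It fell by 0.70 ± 0.05 on the log2 scale (adjusted p = 2.19e-13), and its 3 relatives had at most 2 counts in a library. Cacng7 (ENSMUSG00000069806), a gamma subunit that also regulates AMPA-type glutamate receptors, was at 50.5, 51.7 and 54.0 CPM in WT and 23.6, 22.6 and 25.9 CPM in FR. It fell by 1.12 ± 0.05 on the log2 scale (adjusted p = 6.09e-17). In both cases the groups did not overlap.

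The beta subunits bind the alpha1 subunit inside the cell and carry it to the surface. Cacnb3 (ENSMUSG00000003352) had 43.1, 41.1 and 44.2 CPM in WT and 64.9, 65.2 and 63.5 CPM in FR, and it rose by 0.59 ± 0.04 on the log2 scale (adjusted p = 5.30e-13). Cacnb1 (ENSMUSG00000020882), the beta subunit of skeletal muscle, had 6.78, 6.25 and 4.84 CPM in WT and 5.97, 6.03 and 5.67 CPM in FR. The groups overlapped, with a log2 fold change of -0.02 ± 0.13 (adjusted p = 0.916). Cacnb4 had 0.843, 0.698 and 0.819 CPM in WT and 0.467, 0.240 and 0.425 CPM in FR, and fell by 1.08 ± 0.40 on the log2 scale (adjusted p = 0.0175). Its call was lost without the second FR library (adjusted p = 0.0953) and with DESeq2 (adjusted p = 0.0711), and the overlapping gene A430018G15Rik on the opposite strand fell from 0.733 to 0.0488 CPM. Cacnb3 was the main beta subunit in both groups, with 86.1 ± 2.21% of the beta CPM per kb in WT and 90.7 ± 0.142% in FR.

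Voltage-gated potassium channel alpha subunits repolarize the membrane. Of 40 genes 5 were tested, of which 3 fell and 1 rose, beside 35.5% of all tested genes lower and 34.6% higher. The summed level of the 40 was 64.2 to 67.3 CPM in WT and 24.1 to 25.5 CPM in FR. Kcnh6 (ENSMUSG00000001901), of the ether-a-go-go-related family, had 38.5, 39.7 and 40.8 CPM in WT and 17.2, 16.5 and 15.0 CPM in FR. It fell by 1.29 ± 0.06 on the log2 scale (adjusted p = 3.13e-17). Kcnh2 (ENSMUSG00000038319), of the same family and the channel that ends the heartbeat's action potential, had 21.5, 19.8 and 21.1 CPM in WT and 4.10, 4.28 and 4.20 CPM in FR. It fell by 2.31 ± 0.10 on the log2 scale (adjusted p = 1.28e-18), so both relatives fell, without overlap between the groups in either.

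Kcnd1 (ENSMUSG00000009731), a pore of the fast inactivating A-type current, fell to near the floor. It had 81, 73 and 71 counts in WT and 1, 4 and 6 counts in FR, or 2.86 ± 0.101 and 0.165 ± 0.116 CPM (log2 fold change -4.05 ± 0.36, adjusted p = 4.04e-11). Kcnd1 entered the test through its WT libraries alone, so a difference was built into its selection. Kcna4 (ENSMUSG00000042604), another rapidly inactivating pore, had 1.25, 0.854 and 1.09 CPM in WT and 3.01, 2.48 and 3.59 CPM in FR. It rose by 1.49 ± 0.24 on the log2 scale (adjusted p = 2.97e-06), with no overlap between the groups. Among the 35 genes not tested, Kcnh3, Kcnf1 and Kcnh1 had the highest totals, and Kcnf1 had 7, 4 and 8 counts in WT and 0, 2 and 1 counts in FR.

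The Kcnh2 stretch is shown as that of a potassium pore that fell, chr5:24329592-24329841 on the minus strand of GRCm38.p6, with GC boxes in capitals.
Kcnh2: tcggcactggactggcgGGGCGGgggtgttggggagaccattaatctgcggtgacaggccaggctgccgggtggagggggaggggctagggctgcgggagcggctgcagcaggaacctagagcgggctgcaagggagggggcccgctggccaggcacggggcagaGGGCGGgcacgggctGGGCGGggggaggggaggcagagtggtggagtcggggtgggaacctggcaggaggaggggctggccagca
It held 14 CG pairs and 3 GC boxes. GC boxes thus stood in the stretch shown for Kcnh2, which fell, and in the 1 of 3 shown for Cacna1c, which rose.

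Most tested auxiliary subunits of voltage-gated potassium channels rose. Of the 11 genes 4 were tested, 3 rose and 1 fell, beside 34.6% of all tested genes higher and 35.5% lower. The summed level of the 11 was 45.8 to 49.8 CPM in WT and 84.8 to 87.7 CPM in FR. Kcnip4 (ENSMUSG00000029088), a calcium-binding partner of A-type pores of the Kcnd group, had 17.3, 20.4 and 19.4 CPM in WT and 41.2, 38.7 and 38.3 CPM in FR. It rose by 1.05 ± 0.06 on the log2 scale (adjusted p = 5.02e-15). Its usual pores were Kcnd1, which fell, Kcnd3 with at most 4 counts in a library, and Kcnd2 with none. The overlapping gene 5730480H06Rik on the opposite strand was at 13.7 CPM in WT and 13.3 CPM in FR (log2 fold change -0.05 ± 0.08, adjusted p = 0.631).

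Kcnab2 (ENSMUSG00000028931), a cytoplasmic beta subunit of pores of the Kcna group with an oxidoreductase fold, had 25, 25.1 and 26.5 CPM in WT and 38.4, 41.0 and 38.1 CPM in FR. It rose by 0.62 ± 0.05 on the log2 scale (adjusted p = 3.85e-11). Kcnab1 (ENSMUSG00000027827), a beta subunit that confers inactivation, had 2.13, 2.99 and 2.26 CPM in WT and 7.22, 6.15 and 7.51 CPM in FR, and it rose by 1.5 ± 0.16 (adjusted p = 1.54e-09). Both rose in the company of Kcna4, the only pore gene of the Kcna group that was tested. Kcnab3, the third member, had 1.06, 1.01 and 1.37 CPM in WT and 0.519, 0.519 and 0.708 CPM in FR and fell by 0.97 ± 0.33 (adjusted p = 0.0116), a call lost without the third WT library (adjusted p = 0.0565).

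Potassium channels opened by calcium or sodium inside the cell summed to 58.1 to 60.7 CPM in WT and 34.3 to 37.5 CPM in FR. Of 5 tested genes 3 fell and 1 rose, beside 35.5% of all tested genes lower and 34.6% higher. Kcnn4 (ENSMUSG00000054342), the intermediate-conductance calcium-activated channel, had 45.8, 45.9 and 47.2 CPM in WT and 33.1, 30.8 and 34.5 CPM in FR. It fell by 0.50 ± 0.05 on the log2 scale (adjusted p = 6.61e-10). As a share of the CPM per kb of all potassium pore genes Kcnn4 went from 47.0 ± 0.181% to 61.1 ± 1.5%, while that of Kcnh6 went from 23.8 ± 0.387% to 17.9 ± 1.56%. Kcnt2 (ENSMUSG00000052726), a sodium-activated channel, had 9.31, 10.4 and 10.8 CPM in WT and 0.831, 0.919 and 0.756 CPM in FR. It fell by 3.59 ± 0.16 on the log2 scale (adjusted p = 1.54e-17), without overlap.

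Kcnmb4 (ENSMUSG00000054934), an auxiliary subunit of the large-conductance calcium-activated channel, had 1.10, 0.543 and 0.936 CPM in WT and no count in FR. It was at least 6.18-fold lower (adjusted p = 1.81e-07). Kcnmb4 entered the test through its WT libraries alone, so a difference was built into its selection. The pore that it serves, Kcnma1, had 0, 2 and 1 counts in WT and 0, 1 and 0 counts in FR, so no change of that pore could be seen at this depth. Kcnn1, a small-conductance calcium-activated channel, had 0.660, 0.660 and 0.585 CPM in WT and 1.56, 0.919 and 1.28 CPM in FR and rose by 0.96 ± 0.33 on the log2 scale (adjusted p = 0.0112), a call lost without the first FR library (adjusted p = 0.0649). Kcnu1, the pH-sensitive channel of sperm, overlapped between the groups, with 1.14, 0.931 and 1.09 CPM in WT and 0.571, 1.44 and 0.803 CPM in FR (adjusted p = 0.733).

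Channels with 2 pore domains carry the potassium leak that sets the resting potential. All 3 that were tested fell, where 35.5% of all tested genes were lower. The 14 genes summed to 10.7 to 11.2 CPM in WT and 3.72 to 3.74 CPM in FR. Kcnk2 (ENSMUSG00000037624), a leak channel opened by stretch and lipids, had 4.62, 5.39 and 4.21 CPM in WT and 2.44, 2.00 and 2.50 CPM in FR, and it fell by 1.04 ± 0.17 on the log2 scale (adjusted p = 3.94e-06). Kcnk10 (ENSMUSG00000033854), its near relative, had 2.31, 2.06 and 2.77 CPM in WT and 0.364, 0.440 and 0.236 CPM in FR, and it fell by 2.74 ± 0.32 (adjusted p = 9.33e-09). Kcnk5 (ENSMUSG00000023243), a leak channel sensitive to pH outside the cell, had 3.96, 2.99 and 3.55 CPM in WT and 0.312, 0.440 and 0.236 CPM in FR. It fell by 3.37 ± 0.29 (adjusted p = 2.34e-11). Kcnk10 and Kcnk5 passed the filter level in 3 WT libraries but in only 1 FR library, so their selection favoured a fall. Kcnk4, the third stretch-sensitive relative, was not tested, and its expected counts of 4.62, 10.9 and 4.06 in WT overlapped those of 7.48, 12.4 and 8.06 in FR. Kcnk3, also not tested, leaned the other way, with 2, 0 and 0 counts in WT and 5, 5 and 4 counts in FR.

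Inwardly rectifying channels, which pass potassium best at negative potentials, were low in both groups and neither tested gene passed the test. Kcnj15 had 1.21, 0.893 and 1.13 CPM in WT and 1.35, 1.36 and 0.992 CPM in FR (log2 fold change 0.19 ± 0.29, adjusted p = 0.568). Kcnj14 had 0.513, 0.272 and 0.624 CPM in WT and 0.727, 0.599 and 0.945 CPM in FR (log2 fold change 0.67 ± 0.39, adjusted p = 0.131). Of the 13 others, Kcnj2, a classical inward rectifier of the resting potential, had 7, 12 and 10 counts in WT and 3, 8 and 5 counts in FR, while 7 had no count at all.

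Since several of these genes are best known in neurons, neuronal markers were set beside them. Over 10 markers the summed level was 23.9 to 25.6 CPM in WT and 13.4 to 15.9 CPM in FR. Of 4 that were tested 3 fell and 1 rose, where 34.6% of all tested genes were higher and 35.5% lower. Tubb3 went from 18.1 to 12.4 CPM. Syt1 went from 4.81 to 0.956 CPM and Map2 from 1.51 CPM to no count, while Elavl3 went from 0.278 to 1.21 CPM. Map2 entered the test through its WT libraries alone and Elavl3 through its FR libraries alone. The defining markers Rbfox3, Nefl and Nefm had no count in any library. The part of these genes in the result for the sodium channels was not tested.

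Regulators of calcium channels were mixed. Of 13 genes listed 8 were tested, 1 rose and 5 fell, where 34.6% of all tested genes were higher and 35.5% lower. Rrad, a small GTPase that holds L-type channels back by way of the beta subunit, had 5.06, 5.04 and 5.11 CPM in WT and 0.727, 0.519 and 0.661 CPM in FR. It fell by 3.0 ± 0.21 on the log2 scale (adjusted p = 3.73e-13). Gem, a GTPase of the same family, went the other way, from 1.25, 2.02 and 1.29 CPM to 4.99, 3.96 and 4.63 CPM (log2 fold change 1.57 ± 0.20, adjusted p = 7.30e-08). Stac2, an adaptor of L-type channels, fell by 2.13 ± 0.25 (adjusted p = 3.71e-08).

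Regulators of sodium channels moved in both directions. Of 13 listed genes 10 were tested, 6 rose and 3 fell, beside 34.6% of all tested genes higher and 35.5% lower. Ank2 and Ank3, ankyrins that anchor channels to the spectrin skeleton, fell by 0.73 ± 0.04 and 0.30 ± 0.05 on the log2 scale. Nedd4l, the ubiquitin ligase that removes sodium channels from the surface, rose from 40.3 to 52.6 CPM (log2 fold change 0.39 ± 0.06, adjusted p = 5.47e-06). Ranbp2, Nedd4, Pias1 and Gpd1l rose by 0.17 to 0.36 on the log2 scale. Fgf11, an intracellular relative of the fibroblast growth factors that binds sodium channels, averaged 0.306 CPM in WT and 0.935 CPM in FR. It entered the test through its FR libraries alone.

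Among 21 genes listed as partners of potassium channels 10 were tested, of which 4 rose and 5 fell. Of all tested genes 34.6% were higher and 35.5% lower. Whether each listed gene, Caprin2 and the cornichons among them, acts on potassium channels was not tested. Jph2, a junctophilin that joins the endoplasmic reticulum to the surface membrane near calcium-activated channels, had 35.5, 36.9 and 37.4 CPM in WT and 4.52, 3.84 and 4.01 CPM in FR. It fell by 3.16 ± 0.08 on the log2 scale (adjusted p = 1.42e-23). Caprin2 fell by 0.94 ± 0.10, and Akap5, a kinase anchor at channels, rose by 1.69 ± 0.28 (adjusted p = 4.85e-06). Cnih2, a cornichon protein of the secretory route, rose from 4.03 to 7.42 CPM (log2 fold change 0.88 ± 0.14, adjusted p = 1.92e-06). Jph3, a junctophilin of neurons, averaged 0.0885 CPM in WT against 0.699 CPM in FR. It entered the test through its FR libraries alone, so a difference was built into its selection. Each of the 3 lists of partners thus held genes that rose and genes that fell.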

How the data were processed

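Poly(A)-selected RNA of 6 libraries was sequenced as paired-end reads, per the labels' protocols, in which strand is not stated, so a gene's reads cannot be told apart from those of an antisense gene that overlaps it. The values are expected counts, unscaled, in 1 gene table that the authors deposited. Per the submitters' processing notes, fastp, HISAT and RSEM were used with GRCm39. Versions, settings and annotation release are not given in the sources used here. The table also held a gene length, which was used only to give CPM per kb, and group means, which were not used.

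Expected counts were rounded to whole numbers, filtered with filterByExpr (minimum count 10) of edgeR 4.0.16 in R 4.3.3 and scaled with TMM factors. The 733 rows without a gene name are assembled loci and stayed in the fit. The test of FR against WT was edgeR's quasi-likelihood F-test with robust estimation and no covariates, with Benjamini-Hochberg adjustment across 14889 genes. Where a group had no count, the fold is a bound from 3 counts per library (0.110 to 0.156 CPM), which covers counting error only. Where libraries of a group are not separate cultures, the p-values measure only technical spread. Between replicate libraries the chi-square per degree of freedom was 2.34 to 3.37, above sampling noise, so none was a copy of another. The steps were tested on simulated counts.

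The symbol rule uses no measured value, but it, the partner and marker lists and the tests were chosen with earlier results of these data known. Subunits with a mean of at least 1 CPM are named with their values, as are other tested subunits, and of those not tested the ones with the highest counts. Partner genes are named where they passed the test with a mean of at least 1 CPM, or as the largest changes of their list. Some genes that these rules take, 2 tested subunits among them, are counted but not reported here. Scn7a, Kcnma1, the untested L-type, T-type and A-type pores and the neighbours of the sodium channel genes were named after their values were seen. Gene order and overlaps come from GENCODE vM21 on GRCm38, another build, so no gene coordinates are given; promoter windows are those of RefSeq on GRCm38.p6. Alternatives were other scalings and filters, a fit that is not robust, a replicate block, leaving out 1 library at a time or the 10 most abundant genes, DESeq2 1.42.0 and limma-voom (limma 3.58.1). Plots were made in Python 3.11.15 with matplotlib 3.10.9.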

Additional observations from a re-analysis of the deposited data

How the results depend on the processing

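Of 33 tested subunits 28 kept their direction and their side of the threshold under every alternative that could test them. The numbers of subunits higher and lower in FR were 8 and 20, ranged from 7 to 8 and from 19 to 20 when a library was left out, and were 10 and 23 of 95 with no filter, 6 and 16 of 24 with a mean of at least 1 CPM, and 8 and 19 with DESeq2. The number of all genes called was 10440, ranged from 9898 to 10074 when a library was left out, and was 9518 with DESeq2 and 10931 with no filter. The log2 fold change of Cacnb1 ranged from -0.145 to 0.088 and that of Kcnu1 from -0.616 to 0.097 over the libraries left out; neither gene passed the test, so their direction is not determined. With no filter Kcnk3 and Kcnj9 were higher and Kcnf1, Kcnh5 and Scn7a lower, on at most 9 counts in a library. With the replicate number as a replicate block 10292 genes were called and 8 and 20 subunits. Libraries of the same number did not deviate together (correlations -0.017, -0.004 and -0.028). By this measure the numbers showed no pairing, which it cannot exclude. Depth limits the 99 subunits that were not tested, whose mean stayed at or under 0.331 CPM. Exons of 14 tested subunits overlap those of another gene, and 11 had expected counts that were not whole, from reads shared out between genes; their part in the results was not tested.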

Other observations

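Of 58 genes listed for other cation channels, outside the 3 families above, 56 were found in the table and 21 were tested. Of these 5 rose and 11 fell, where 34.6% of all tested genes were higher and 35.5% lower. Trpv2, a heat- and stretch-sensitive cation channel, had 20, 18.8 and 19.5 CPM in WT and 2.44, 2.16 and 1.75 CPM in FR, and it fell by 3.20 ± 0.12 on the log2 scale (adjusted p = 6.44e-20). Hcn2, a pacemaker channel opened by hyperpolarization, had 8.10, 8.96 and 7.37 CPM in WT and 1.25, 1.12 and 0.803 CPM in FR and fell by 2.94 ± 0.17 (adjusted p = 6.69e-15). Cnga3, a pore of the cyclic nucleotide-gated channel of cones, had 0.879, 0.660 and 0.546 CPM in WT and 4.15, 3.36 and 4.11 CPM in FR and rose by 2.46 ± 0.24 (adjusted p = 4.52e-10). Cngb1, a subunit of rod and olfactory channels, rose as well, from 2.58 to 5.00 CPM. The mechanosensitive channel Piezo1 rose from 437 to 510 CPM, and the polycystin channel Pkd2 fell from 257 to 130 CPM.

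The sodium pump, which exchanges sodium for potassium and so maintains the gradients that all these channels use, had 5 tested genes of 14 listed. Of these 3 rose and 2 fell, where 34.6% of all tested genes were higher and 35.5% lower. Of the beta subunits, Atp1b3 rose from 138 to 148 CPM, and Atp1b1 had 1.58, 2.06 and 1.40 CPM in WT and 1 count in the 3 FR libraries together. It entered the test through its WT libraries alone, so a difference was built into its selection.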
